A study of Homo sapiens with 79 samples.

Results

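The mRNAs that encode the components of Polycomb repressive complex 2 (PRC2) were followed through a panel of formaldehyde RNA immunoprecipitations (fRIP-Seq) in K562, a human erythroleukemia cell line. The members are 10 genes picked by symbol, namely EZH2, EZH1, SUZ12, EED, RBBP4, RBBP7, JARID2, AEBP2, MTF2 and PHF19, out of 48453 genes in the gene table, together with their 120 isoforms out of 185661 in the isoform table. In fRIP-Seq, cells are lightly fixed with formaldehyde, lysed and sonicated, a protein is pulled down with an antibody, and the RNA that comes with it is sequenced beside input RNA that saw no antibody. The panel held 70 fRIP libraries of 24 proteins and 9 input libraries in 3 sets of 3, all from untreated cells of the same line, so that no library differs from another by genotype or drug. Antibodies to EZH2 gave 2 libraries and antibodies to SUZ12 gave 3, and these 2 fRIPs are described first, since both targets are subunits of PRC2. All comparisons with input share the same 9 input libraries.

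PRC2 methylates a lysine in the tail of histone H3 and keeps developmental genes silent. EZH2 or its less active relative EZH1 is the catalytic subunit, SUZ12 is the scaffold, EED recognises the methyl mark and stimulates the enzyme, and RBBP4 and RBBP7 are closely related histone chaperones that also serve in other chromatin complexes. Accessory subunits come in separate classes, with JARID2 and AEBP2 in one and the Polycomb-like proteins MTF2 and PHF19 in the other. PRC2 is also known for binding RNA with little sequence preference, which is why the RNAs that come down with EZH2 and SUZ12 have drawn attention.

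Each value below is FPKM (fragments per kilobase of transcript, scaled to sequencing depth), a measure of level already divided by transcript length. Fold changes are differences in log2(FPKM + 1), so those of genes at low levels come out too small. A gene was called enriched or depleted when limma gave an adjusted p under 0.05 (Benjamini-Hochberg over all 25442 genes at 1 FPKM or more in at least 2 libraries) and the fold change was over 2. All 10 members passed that filter. From the steps in the FPKM values, depth was estimated at 1.93 M to 58.6 M fragments per fRIP library (median 13.3 M, where M stands for 1e6), 11.9 M to 30.5 M per input library, 9.34 M and 12.9 M for the EZH2 libraries and 21.0 M to 25.1 M for the SUZ12 libraries. At these depths a member's value rested on about 481 to 8201 fragments in an EZH2 library and about 1965 to 20207 in a SUZ12 library. Of 10 marker genes of K562, such as the fetal globin HBG2 (median 944 FPKM in input) and the erythroid factor GATA1 (85.3 FPKM), all had a median above 1 FPKM in input. Among markers of other cell types, EPCAM (35.4 FPKM) also had a median above 1 FPKM, and its part in the results was not tested, while CD3E, MS4A1, KRT5, ALB and COL1A1 were below 1 FPKM in all inputs.

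The sequences that matter most to the results are boundaries between exons and introns, because much of the PRC2 RNA in SUZ12 fRIP was assigned to isoforms that keep intron sequence. Each line gives 30 bases, read 5′ to 3′ on the coding strand from the GRCh37 genome (hg19), over a boundary of the member's main mRNA that lies inside 1 exon of its leading retained-intron isoform. Capitals mark the exon of the main mRNA and lower case marks its intron.
EZH2, end of exon 10: CTTCGAGCTCCTCTGgtaagacacgtctaa
EZH1, start of exon 20: ttatcctgcttgcagTGGTCATGGTGAATG
SUZ12, start of exon 13: acatttttgttgcagTATCATCCAAAAGGT
EED, end of exon 11: GATTTCTGGCAAAAGgtatcaacatacttt
RBBP4, start of exon 5: tctgtcactttgcagATCCTTCTGGAGAGT
RBBP7, end of exon 6: TCAGAAACTTATGATgtaaggtggaaaatt

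These windows lie at chr7:148514954-148514983 (minus strand, EZH2), chr17:40854965-40854994 (minus strand, EZH1), chr17:30321568-30321597 (plus strand, SUZ12), chr11:85988166-85988195 (plus strand, EED), chr1:33134325-33134354 (plus strand, RBBP4) and chrX:16871790-16871819 (minus strand, RBBP7). A fragment that crosses such a boundary without a splice comes from RNA in which that intron, or its near part, was still present. The isoforms concerned keep the whole intron for EZH2 (485 bases) and RBBP7 (806 bases), and end or begin inside the intron for the other members shown.

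In hg19 the catalytic subunits are encoded by EZH2 (ENSG00000106462.6) at chr7:148504349-148581413 on the minus strand and EZH1 (ENSG00000108799.8) at chr17:40852293-40897067 on the minus strand. The other core genes are SUZ12 (ENSG00000178691.6) at chr17:30264026-30328057 on the plus strand, EED (ENSG00000074266.13) at chr11:85912254-85989855 on the plus strand, RBBP4 (ENSG00000162521.14) at chr1:33116743-33151812 on the plus strand and RBBP7 (ENSG00000102054.13) at chrX:16857406-16888485 on the minus strand. The accessory genes are JARID2 (ENSG00000008083.9) at chr6:15246300-15522273 on the plus strand, AEBP2 (ENSG00000139154.10) at chr12:19556979-19873735 on the plus strand, MTF2 (ENSG00000143033.13) at chr1:93544792-93604636 on the plus strand and PHF19 (ENSG00000119403.9) at chr9:123617929-123657174 on the minus strand.

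EZH2 mRNA, which encodes the catalytic subunit, was enriched in EZH2 fRIP and in SUZ12 fRIP. Its level was 73.4 FPKM in the lowest input, 109 in the median input and 124 in the highest, against 245 and 337 FPKM in the EZH2 libraries and 293, 315 and 371 FPKM in the SUZ12 libraries. All 5 of these libraries lay above all 9 inputs. The log2 fold change over input was 1.49 in EZH2 fRIP (standard error 0.19, limma adjusted p = 1.29e-09), a 2.80-fold difference, and 1.66 in SUZ12 fRIP (standard error 0.16, limma adjusted p = 9.63e-14), a 3.16-fold difference. The difference between the 2 fRIPs was 0.18 on the log2 scale with a standard error of 0.22 (limma adjusted p = 0.567). Across the panel these were the top 2 mean levels of EZH2 mRNA, 327 ± 40.3 FPKM (SD, n = 3) and 291 ± 65.1 FPKM (SD, n = 2), and the next was 170 ± 17.3 FPKM (SD, n = 3) in CHD7 fRIP, whose range did not reach theirs.

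JARID2 mRNA, which encodes an accessory subunit that helps recruit the complex, was the member with the largest fold change in EZH2 fRIP. Input libraries ran from 14.3 to 19.4 FPKM with a median of 17.3, the EZH2 libraries held 67.9 and 57.9 FPKM, and the SUZ12 libraries held 32.8, 35.4 and 36.8 FPKM. The groups were separate, with both EZH2 libraries above all SUZ12 libraries and those above all inputs. The log2 fold change was 1.83 in EZH2 fRIP (standard error 0.11, limma adjusted p = 2.45e-22), a 3.55-fold difference, and 1.00 in SUZ12 fRIP (standard error 0.09, limma adjusted p = 7.53e-15). The latter sat at the 2-fold threshold. It was lost against input set 1, the set matched to SUZ12 (0.86), with each library centred on its median (0.98), and without any 1 of 6 libraries (SUZ12 replicate 2 or 3, or replicate 1 or 3 of input set 2 or 3), at 0.97 to 1.00. The value for JARID2 in SUZ12 fRIP against EZH2 fRIP was -0.82 on the log2 scale (limma adjusted p = 6.34e-08), short of the threshold, and it passed at -1.02 with centred libraries.

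EZH1 and SUZ12 mRNAs differed most between the fRIPs of EZH2 and SUZ12. EZH1, the alternative catalytic subunit, ran from 14.9 to 32.8 FPKM in input with a median of 21.3. It stood at 11.4 and 11.1 FPKM in the EZH2 libraries and at 61.3, 81.9 and 117 FPKM in the SUZ12 libraries, so that the former lay below all inputs and the latter above. The log2 fold change of EZH1 was 1.87 in SUZ12 fRIP (standard error 0.18, limma adjusted p = 3.82e-14), a 3.65-fold difference.

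In EZH2 fRIP EZH1 was at -0.93 (standard error 0.21, limma adjusted p = 0.00017), short of 2-fold, and it passed the threshold at -1.19 against input set 1 alone. SUZ12 mRNA, which encodes the scaffold, ran from 35.6 to 48.7 FPKM in input with a median of 43.0, stood at 28.6 and 30.3 FPKM in the EZH2 libraries, and reached 123, 136 and 123.4 FPKM in the SUZ12 libraries. Again the EZH2 libraries lay below and the SUZ12 libraries above all inputs. The log2 fold change was 1.56 in SUZ12 fRIP (standard error 0.11, limma adjusted p = 7.00e-19), a 2.95-fold difference, and -0.52 in EZH2 fRIP (standard error 0.13, limma adjusted p = 0.000836), which did not reach 2-fold. SUZ12 mRNA had its highest mean level of the whole panel in SUZ12 fRIP, 127 ± 7.17 FPKM (SD, n = 3), clear of the next, 82.8 ± 1.30 FPKM (SD, n = 3) in ADAR fRIP.

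The other core subunits showed smaller changes. EED mRNA ran from 28.9 to 52.2 FPKM in input (median 38.8) and stood at 44.2 and 33.5 FPKM in EZH2 fRIP, inside the input range, and at 77.1, 70.4 and 93.2 FPKM in SUZ12 fRIP, above it. Its log2 fold change was 1.01 in SUZ12 fRIP (standard error 0.15, limma adjusted p = 4.71e-08), at the threshold, and -0.02 in EZH2 fRIP (standard error 0.18, limma adjusted p = 0.938). The EED call in SUZ12 fRIP was lost with centred libraries, with input set 2 or 3 alone, and without any 1 of 5 libraries (SUZ12 replicate 3, input set 1 replicates 1, 2 and 3, or input set 3 replicate 3), where the value was 0.90 to 0.99.

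RBBP4 mRNA was between 106 and 127 FPKM in input (median 116), 67.9 and 76.5 FPKM in EZH2 fRIP and 225, 205 and 232 FPKM in SUZ12 fRIP. Both sets of libraries stood clear of the inputs, on opposite sides, with log2 fold changes of -0.68 (standard error 0.09, limma adjusted p = 1.88e-09) and 0.92 (standard error 0.07, limma adjusted p = 8.62e-17), neither of them 2-fold. RBBP4 has many processed pseudogenes, and 61.8% of the 25-base words of its main mRNA recur in transcripts of other genes (37.5% in RBBP4P1 alone), so its value is uncertain. For SUZ12 that share was 15.6% (14.05% in SUZ12P1) and for EED 9.75% (6.10% in EEDP1). RBBP4, RBBP7 and JARID2 also overlap other annotated genes (SYNC, TXLNG and the antisense JARID2-AS1), whose reads may not be told apart from theirs. RBBP7, with 0.106% of such words, overlapped input in both fRIPs, at 108 and 94.5 FPKM with EZH2 and 118, 111 and 138 FPKM with SUZ12 against 75.7 to 128 FPKM in input (median 98.0).

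Of the remaining accessory subunits, MTF2 was enriched in SUZ12 fRIP. MTF2, a Polycomb-like protein that binds unmethylated CpG-rich DNA, ran from 39.6 to 51.3 FPKM in input (median 47.3), 77.2 and 50.3 FPKM in EZH2 fRIP, and 116, 104 and 144 FPKM in SUZ12 fRIP. The SUZ12 libraries lay above all inputs, while 1 of the EZH2 libraries overlapped them. The log2 fold change was 1.36 in SUZ12 fRIP (standard error 0.13, limma adjusted p = 1.00e-13) and 0.43 in EZH2 fRIP (standard error 0.15, limma adjusted p = 0.0199).

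AEBP2, a zinc finger cofactor, reached 20.01, 18.6 and 23.4 FPKM in SUZ12 fRIP and 16.9 and 13.0 FPKM in EZH2 fRIP against 9.57 to 13.7 FPKM in input (median 12.8). Its log2 fold change of 0.72 in SUZ12 fRIP (limma adjusted p = 5.12e-06) was short of 2-fold, although the 3 libraries lay above all inputs. PHF19, the other Polycomb-like protein, stayed within the input range of 107 to 195 FPKM (median 139) in 4 of the 5 libraries, with 125 and 113 FPKM in EZH2 fRIP and 122, 105 and 155 FPKM in SUZ12 fRIP. The exception, SUZ12 replicate 2, lay just below the lowest input.

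**Figure D1:**
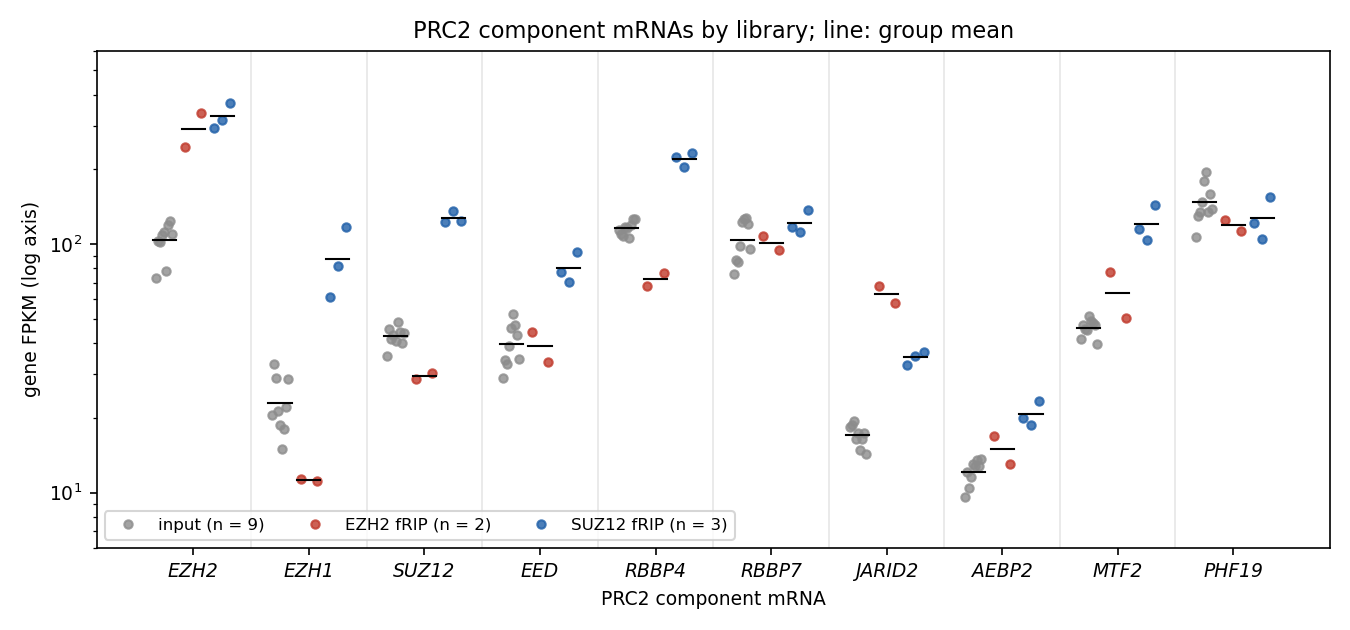
Gene FPKM (log axis) of the 10 PRC2 component mRNAs in each library, for input (grey, n = 9), EZH2 fRIP (red, n = 2) and SUZ12 fRIP (blue, n = 3), with a line at each group mean. EZH2 and JARID2 lie above all inputs in both fRIPs, while EZH1, SUZ12 and RBBP4 lie below all inputs with EZH2 and above all inputs with SUZ12.

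In counts, 2 of the 10 members (EZH2 and JARID2) were enriched in EZH2 fRIP and 0 were depleted, where 10.5% of all genes tested were enriched and 9.13% depleted. The members' median log2 fold change there was -0.02, beside -0.13 for all genes. With centred libraries 67.7% of all calls in EZH2 fRIP were enrichments, against 53.5% as deposited, and the members' counts were the same under both. In SUZ12 fRIP, 6 members were enriched (EZH2, EZH1, SUZ12, EED, JARID2 and MTF2) and 0 were depleted, where 15.3% of all genes were enriched and 8.6% depleted, and the median was 1.01 for the members and 0.01 for all genes. The 2 members enriched with EZH2 are within 1 gene of the background share. The 6 enriched with SUZ12 exceeded it by more than that, and became 4 with centred libraries, without SUZ12 replicate 3 or without input set 3 replicate 3. They became 2 with protein-coding isoforms only, within 1 gene of that share.

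Read by ranges alone, 2 members had both EZH2 libraries above all inputs (19.1% of all genes did) and 3 had both below (22% of all genes), and 8 had all 3 SUZ12 libraries above the inputs (23.9% of all genes) while 0 had all below (15.9% of all genes). The exact two-sided permutation test of each member's log2 values gave p = 0.0364 for each of the 5 separate members with EZH2 (2 libraries against 9) and p = 0.00909 for each of the 8 with SUZ12 (3 libraries against 9), in both cases the smallest p the design allows, over 20 such tests with no correction.

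Set against each other directly, SUZ12 and EZH2 fRIP differed for 4 members, all higher with SUZ12, and for 0 that were lower. The latter count did not stay at 0 with centred libraries or with the matched input set. The nearest input set was set 1 for SUZ12 and set 3 for EZH2, so target and set cannot be told apart in this comparison. Over all genes, 18.5% were higher and 13.1% lower in SUZ12 fRIP, and centring the libraries turned that split from 58.5% higher to 48.4% higher. The log2 differences were 2.79 for EZH1 (standard error 0.24, limma adjusted p = 1.62e-15), 2.08 for SUZ12 (standard error 0.15, limma adjusted p = 2.68e-18), 1.60 for RBBP4 (standard error 0.10, limma adjusted p = 5.56e-21) and 1.03 for EED (standard error 0.21, limma adjusted p = 2.21e-05). EZH1 was thus 6.93-fold and SUZ12 4.21-fold higher with SUZ12 as the target than with EZH2. The EED call was lost with centred libraries (0.84), in the fit with a replicate block (0.96), without EZH2 replicate 2 (0.84) and without SUZ12 replicate 3 (0.92). MTF2, at 0.93, passed the threshold without EZH2 replicate 1 (1.24) and without SUZ12 replicate 2 (1.04).

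The isoform table shows that the PRC2 RNA in the 2 fRIPs was of different kinds. Each matched isoform was placed by its GENCODE type as protein-coding, or as one of the others: retained intron, nonsense-mediated decay, or a transcript with no defined coding sequence. The 5 member isoforms that matched no annotated transcript are in neither sum, and shares are of the matched isoform FPKM. In SUZ12 fRIP the summed FPKM of the other isoforms was enriched for 7 of 9 members with such isoforms and depleted for 0 (40.7% and 2.57% of all such gene sums), and the sum of the protein-coding isoforms for 2 of 10 and 0 (15.3% and 15.8%). In EZH2 fRIP the protein-coding sum was enriched for 2 members and depleted for 0 (16.6% and 5.42%), and the sum of the other isoforms was enriched for 0 and depleted for 3 (6.7% and 14.2%). The median log2 fold change of the other isoforms in SUZ12 fRIP was 2.07 over members, beside 0.73 over all genes with such isoforms, and that of the protein-coding isoforms was 0.58 beside -0.03. With unmatched isoforms counted as protein-coding, an alternative chosen after seeing the data, 4 members (EZH2, EZH1, SUZ12 and JARID2) were enriched for the protein-coding sum in SUZ12 fRIP. With them counted as other, 8 were enriched for the other sum, JARID2 being added.

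The isoforms of EZH2 are given first. Those not annotated as protein-coding held 14.9% to 31.3% of its matched isoform FPKM in input (median 18.1%), 5.57% and 3.93% in the EZH2 libraries, and 51.6%, 56.6% and 55.1% in the SUZ12 libraries, 3 ranges with no overlap. Its protein-coding sum was 1.81 higher than input in EZH2 fRIP on the log2 scale (limma adjusted p = 8.26e-10) and 0.72 in SUZ12 fRIP (limma adjusted p = 0.00086), short of 2-fold with unmatched isoforms left out. The sum of the other isoforms was 2.82 higher in SUZ12 fRIP (limma adjusted p = 7.83e-20) and at -0.59 in EZH2 fRIP (limma adjusted p = 0.0266).

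The gene totals of EZH2 in the 2 fRIPs, which did not differ detectably, were thus made of unlike isoforms. Set against each other over matched isoforms, the protein-coding sum of EZH2 was lower in SUZ12 than in EZH2 fRIP by 1.09 on the log2 scale (a log2 difference of -1.09, limma adjusted p = 0.000295) and the sum of the other isoforms was higher by 3.42 (limma adjusted p = 1.35e-17). An isoform in neither sum, ENST00000536783 of EZH2, stood at 54.7, 40.4 and 45.9 FPKM in SUZ12 fRIP, above its input range of 3.67 to 5.81 FPKM (log2 fold change 3.02, limma adjusted p = 1.42e-20), and made up 14.4% of the gene's isoform FPKM there. Both protein-coding calls of EZH2 turn on where it is placed. With unmatched isoforms counted as protein-coding, the sum was 1.10 over input in SUZ12 fRIP (limma adjusted p = 4.68e-07), which is called enriched, and the difference from EZH2 fRIP was -0.65 (limma adjusted p = 0.0206), which is not called, while the other isoforms were still higher by 3.42. With them counted as other, the protein-coding values were 0.72 and -1.09. The call between the fRIPs was also lost without EZH2 replicate 2 (-0.84).

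The 3 input libraries with the highest share of other isoforms of EZH2, 28.7% to 31.3%, were those of input set 1, which is also the set matched to SUZ12, and the count of members enriched for the other isoforms in SUZ12 fRIP was 7 with that set alone too. The protein-coding sum of EZH2 was lower in input set 1 (46.9, 69.1 and 68.7 FPKM) than in input set 3 (94.8, 94.0 and 87.5 FPKM). Set 3 is matched to EZH2, so both protein-coding values of EZH2 also depend on the input set used. Against the matched sets the sum lay over 2-fold in SUZ12 fRIP, and the difference from EZH2 fRIP fell short of 2-fold.

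The genes of the other core subunits followed with their own values. The other isoforms of EED summed to 48.0, 47.4 and 61.7 FPKM in SUZ12 fRIP against 8.29 to 14.95 FPKM in input (log2 fold change 2.17, limma adjusted p = 2.87e-14), while its protein-coding isoforms were at -0.02 (limma adjusted p = 0.952). In shares, the other isoforms of EED held 19.9% to 38.95% in input, 8.81% and 18.1% in the EZH2 libraries and 62.2% to 67.4% in the SUZ12 libraries, again 3 ranges with no overlap. The protein-coding isoforms of EED behind that sum were called in both directions, with ENST00000327320 enriched (1.21) and ENST00000351625 depleted (-1.28). For EZH1 and SUZ12 both kinds were enriched, at 1.43 and 1.30 for the protein-coding sums and 2.17 and 2.07 for the others. With centred libraries not both of these protein-coding calls held.

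MTF2 (2.09), RBBP4 (1.62) and PHF19 (1.38) were enriched for the other isoforms in SUZ12 fRIP and not for the protein-coding ones (0.43, 0.36 and -0.65). PHF19, whose gene total did not differ detectably from input, held 36.7%, 37.4% and 31.2% in other isoforms in SUZ12 fRIP against 7.45% to 18.1% in input. JARID2 stood apart, since protein-coding isoforms held 96.3% or more of its matched isoform FPKM in every input, EZH2 and SUZ12 library, and AEBP2 has no isoform of another kind. In EZH2 fRIP the 3 depleted sums were those of RBBP7 (-1.67), EZH1 (-1.19) and EED (-1.004). The value of RBBP7 rests on 1 library, since its other isoforms summed to 2.37 FPKM in EZH2 replicate 1 and to 16.7 FPKM in EZH2 replicate 2, the latter inside the input range of 15.95 to 40.5 FPKM. Without EZH2 replicate 1 it was at -0.48 (limma adjusted p = 0.346) and EED at -0.74 (limma adjusted p = 0.0682), neither of them called, while EZH1 was still called. The EED call was also lost without input set 1 replicate 1 or 3 or input set 2 replicate 2 or 3, at -0.997 to -0.95.

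**Figure D2:**
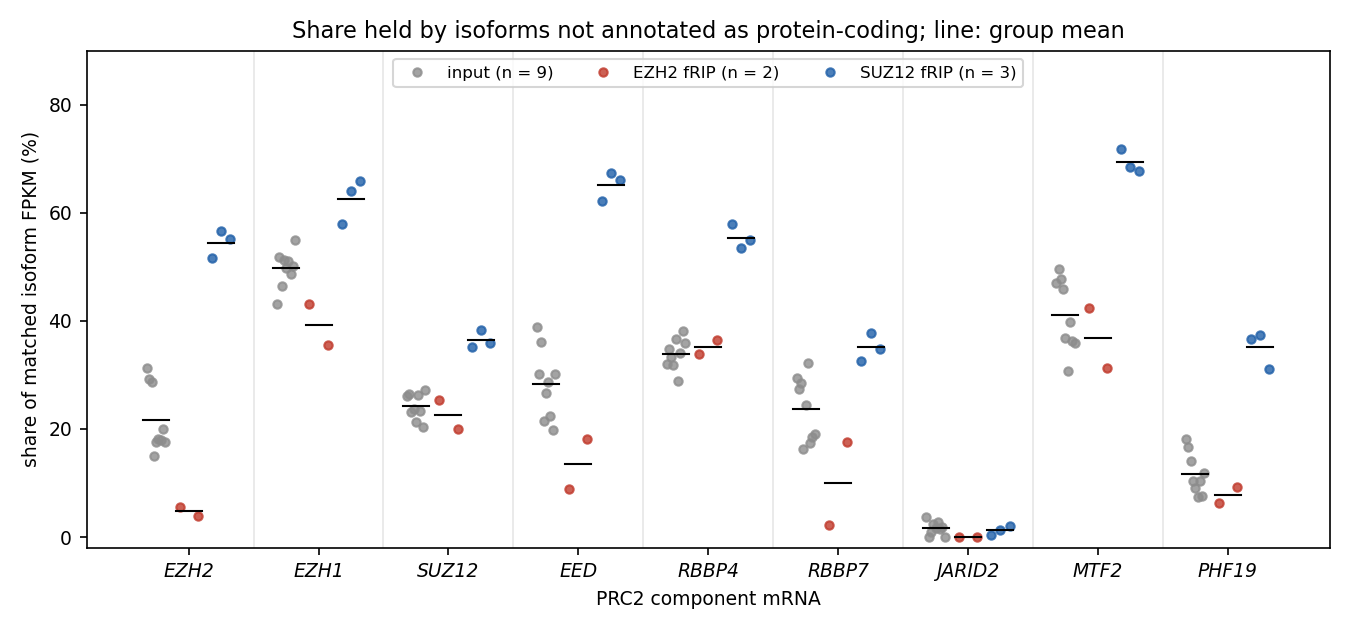
Share of each member's matched isoform FPKM (%) held by isoforms not annotated as protein-coding, in each input (grey, n = 9), EZH2 fRIP (red, n = 2) and SUZ12 fRIP (blue, n = 3) library, with a line at each group mean. Every SUZ12 library lies above every input for all members shown but JARID2, and the EZH2 libraries of EZH2 (5.57% and 3.93%) lie below every input.

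Among single isoforms, 114 of the members' 120 passed the filter. In SUZ12 fRIP, 53 were enriched and 5 depleted (21.3% and 6.47% of all isoforms tested), and in EZH2 fRIP 8 were enriched and 16 depleted (7.24% and 7.37%). The 53 became 32 with centred libraries, and the 16 became 9 with centred libraries, 7 with input set 3 alone, 8 with the matched input set and 10 without EZH2 replicate 1. By type, 17 of 30 retained-intron isoforms (39.8% of all of that type), 11 of 16 with no defined coding sequence (21.9%), 4 of 8 for nonsense-mediated decay (25.9%) and 19 of 55 protein-coding ones (15.9%) were enriched in SUZ12 fRIP. How a gene's fragments are split over isoforms is the authors' estimate from 31-base paired reads, so a value for 1 isoform is less certain than a gene total or a class sum.

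The retained-intron isoform ENST00000498186 of EZH2, whose boundary is printed above, was listed at 0.0302 FPKM or less in all inputs and at 0.000545 FPKM or less in EZH2 fRIP, and at 43.8, 42.4 and 67.4 FPKM in SUZ12 fRIP. No fold is given against levels so near 0. The nonsense-mediated decay isoform ENST00000492143 of EZH2 held 66.5, 96.9 and 90.3 FPKM in SUZ12 fRIP against 10.6 to 23.1 FPKM in input (log2 fold change 2.29, limma adjusted p = 1.22e-16). Among the EZH2 isoforms that held 10% or more of the gene's FPKM in a group, those enriched in EZH2 fRIP were protein-coding, with ENST00000483967 at 70.5 and 78.6 FPKM against 2.73 to 23.8 FPKM in input (2.33, limma adjusted p = 4.34e-05) and ENST00000460911, the leading mRNA in input, at 97.1 and 159 FPKM against 29.9 to 47.7 FPKM (1.67, limma adjusted p = 0.0109). ENST00000350995, also protein-coding, was the third (2.29, limma adjusted p = 0.000625). In SUZ12 fRIP ENST00000483967 was enriched too (1.95), while ENST00000460911 (-0.91, limma adjusted p = 0.0891) and ENST00000350995 (0.85, limma adjusted p = 0.131) were not called.

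For SUZ12 the retained-intron isoform ENST00000578106 held 42.4, 50.9 and 43.4 FPKM in SUZ12 fRIP against 6.73 to 11.2 FPKM in input (2.25, limma adjusted p = 4.48e-11). The leading mRNA ENST00000322652 stood at 41.1, 55.5 and 42.7 FPKM against 22.0 to 32.8 FPKM (0.69, limma adjusted p = 0.000221), short of 2-fold. A second protein-coding isoform, ENST00000580398, held 38.6, 28.2 and 36.4 FPKM against 1.44 to 6.99 FPKM (2.89, limma adjusted p = 9.25e-08), a larger fold change than that of the retained-intron isoform, and was depleted in EZH2 fRIP (-1.94, limma adjusted p = 0.00266). The retained-intron isoform made up 35.8% of the gene's isoform FPKM in SUZ12 fRIP and 20.8% in input, and ENST00000580398 made up 27.0% and 9.20%.

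Retained-intron isoforms of EED (ENST00000525244, 2.60), RBBP4 (ENST00000531983, 3.52), RBBP7 (ENST00000486166, 2.06) and EZH1 (ENST00000586714, 1.59) were likewise enriched in SUZ12 fRIP, the 4 fold changes being on the log2 scale with limma adjusted p of 0.000113 or less. Not all of the type did so, since ENST00000330735 of RBBP7, a retained-intron isoform with 14.3% of the gene's isoform FPKM in input, was depleted (-1.16, limma adjusted p = 0.0321) in SUZ12 fRIP and in EZH2 fRIP (-2.13, limma adjusted p = 0.00146), and ENST00000525506 of RBBP4 was not called (0.59, limma adjusted p = 0.387). In EZH2 fRIP ENST00000586714 of EZH1 was depleted (-1.09, limma adjusted p = 0.0416). Further retained-intron isoforms of EED (ENST00000528250, 2.05), EZH1 (ENST00000586103, 2.45) and RBBP4 (ENST00000401893, 2.53) were enriched in SUZ12 fRIP as well.

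Protein-coding isoforms went both ways in SUZ12 fRIP. Of the 26 that held 10% or more of their gene's isoform FPKM in a group, 8 were enriched, 4 depleted and 14 not called, and of the 11 retained-intron isoforms chosen the same way 9 were enriched and 1 depleted. The levels in SUZ12 fRIP are part of that choice, so these counts are a description. Besides those of EZH2, SUZ12 and EED given above, protein-coding isoforms of RBBP4 (ENST00000475321, 3.09), PHF19 (ENST00000436309, 2.55), MTF2 (ENST00000370303, 1.21), JARID2 (ENST00000397311, 2.10) and AEBP2 (ENST00000541908, 2.57) were enriched. The depleted ones, besides that of EED, were ENST00000380084 of RBBP7 (-1.44), ENST00000312189 of PHF19 (-1.57) and ENST00000360995 of AEBP2 (-1.09). EED, PHF19 and AEBP2 thus each had protein-coding isoforms called in either direction.

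The leading mRNAs in input were mostly among those not called in SUZ12 fRIP. Among these were ENST00000428826 of EZH1 (0.61), ENST00000458695 of RBBP4 (-0.56), ENST00000404022 of RBBP7 (-0.46), ENST00000341776 of JARID2 (0.73) and ENST00000370298 of MTF2 (0.24). ENST00000263360 of EED (-0.45), ENST00000415827 of EZH1 (0.82), ENST00000373896 of PHF19 (-0.74), ENST00000414241 of RBBP4 (0.29) and ENST00000380087 of RBBP7 (0.77) were not called either. In EZH2 fRIP both JARID2 isoforms were enriched (1.69 for ENST00000341776 and 2.96 for ENST00000397311), and ENST00000458695 of RBBP4 was depleted (-1.04).

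Isoforms with no defined coding sequence were enriched in SUZ12 fRIP for MTF2 (ENST00000494963, 2.52, ENST00000489480, 1.41, and ENST00000467953, 1.10) and PHF19 (ENST00000467266, 1.22). In EZH2 fRIP they split, with ENST00000467953 enriched (2.81) and ENST00000489480 (-1.84) and ENST00000467266 (-1.12) depleted.

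Some of these isoform calls rest on 1 library. In EZH2 fRIP, those of ENST00000330735 of RBBP7 (-0.37), ENST00000458695 of RBBP4 (-0.64) and ENST00000580398 of SUZ12 (-1.64) were lost without EZH2 replicate 1, and those of ENST00000460911 of EZH2 (1.31) and ENST00000467266 of PHF19 (-0.81) without EZH2 replicate 2. ENST00000586714 of EZH1 was lost there without either EZH2 library or any 1 of 4 inputs (input set 1 replicate 2 or 3, input set 2 replicate 1 or input set 3 replicate 3), at -1.20 to -0.99. In SUZ12 fRIP, ENST00000351625 of EED was lost without SUZ12 replicate 2 (-0.86), and ENST00000370303 (0.87) and ENST00000467953 (0.85) of MTF2 without SUZ12 replicate 3, the latter also without input set 1 replicate 2 (0.98). ENST00000330735 of RBBP7 was lost there without any 1 SUZ12 library or without input set 2 replicate 2 or 3, at -1.24 to -1.04.

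AEBP2 changed in make-up while all of its isoforms are protein-coding, since the 975-base ENST00000541908 held 73.4% of its isoform FPKM in SUZ12 fRIP and 15.1% in input, and the 5830-base ENST00000266508 held 12.9% and 50.4%.

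The mix of isoforms placed EZH2 and SUZ12 fRIP near opposite ends of the panel. Summed over the 9 members with both kinds, isoforms not annotated as protein-coding held 50.1% of the matched isoform FPKM in SUZ12 fRIP (49.2% to 50.8% over 3 libraries), second to 59.8% in ADAR fRIP (54.7% to 62.5%), and 12.4% in EZH2 fRIP (12.4% and 12.5%), the lowest of the 24. In input the share was 24.4% (21.3% to 29.3% over 9 libraries). Over all mRNA genes the shares were 45.8% with SUZ12, 20.6% with EZH2 and 23.7% in input. These include genes with protein-coding isoforms only, which lower them, while the members' sum leaves out AEBP2, which has no other kind. The members sat above this general share in SUZ12 fRIP and below it in EZH2 fRIP, in each case with ranges over libraries that did not overlap. This was not particular to these fRIPs. The members also sat above with separate ranges in ADAR (59.8% against 41.5%), RBBP5 (35.1% against 29.4%), PHF8 and DNMT1 fRIP. They sat below with separate ranges in NUP98 (15.9% against 21.2%), LSD1 (15.5% against 20.3%) and WDR5 fRIP. The ADAR libraries were the shallowest, at 1.93 M to 2.31 M fragments, and the part of depth in their share was not tested.

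**Figure D3:**
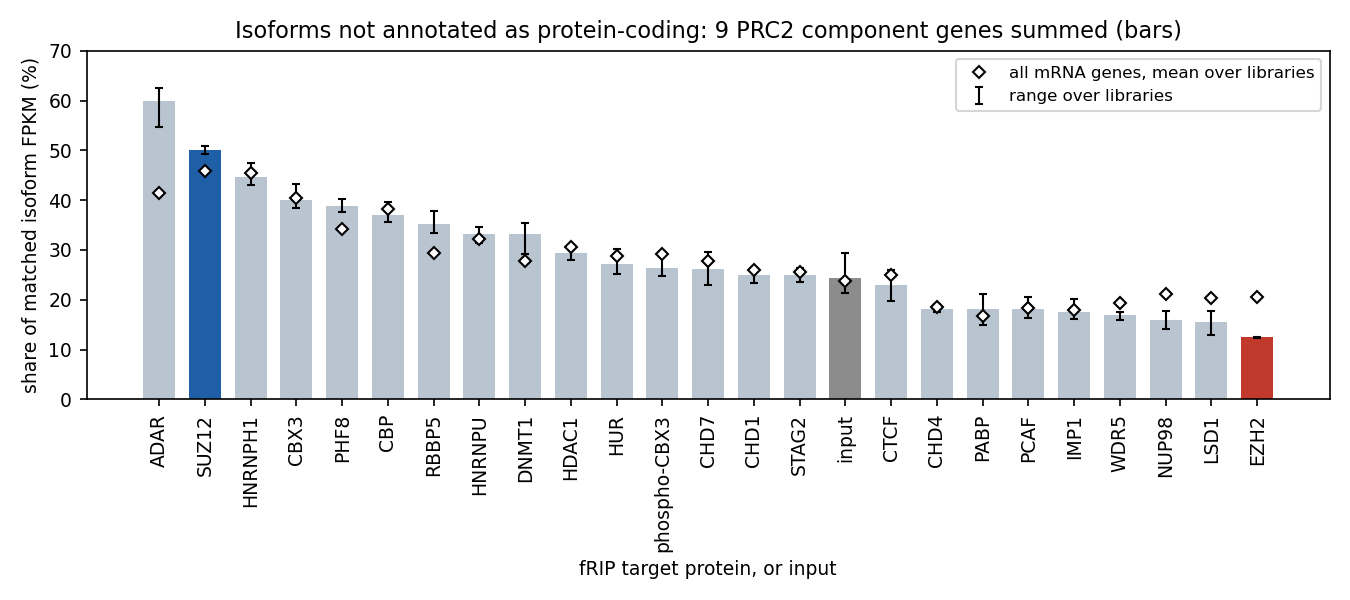
Share (%) of the summed matched isoform FPKM of 9 PRC2 component genes held by isoforms not annotated as protein-coding, for input and each of the 24 fRIPs in falling order (bars: mean over libraries, lines: range over libraries), with the mean share over all mRNA genes as open diamonds. SUZ12 fRIP (blue) stands at 50.1%, input (dark grey) at 24.4% and EZH2 fRIP (red) at 12.4%. The diamonds include genes with protein-coding isoforms only, and the bars do not.

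Across all 24 fRIPs, 18 of the 240 pairs of a member and a fRIP were enriched and 4 were depleted, beside 6.9% of all gene and fRIP pairs enriched and 5.52% depleted. Of the enriched pairs, 8 were those of EZH2 and SUZ12 fRIP and 10 lay among the 220 pairs of the other 22 proteins, a share below the background. In 13 fRIPs no member was called. EZH1 was called most often, enriched in SUZ12, HNRNPH1, CBX3 and HDAC1 fRIP and depleted in PABP and WDR5 fRIP.

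EZH1 mRNA stood at 50.9, 72.7 and 77.9 FPKM in the fRIP of HNRNPH1, an RNA-binding protein that acts in splicing, with a log2 fold change of 1.53 (limma adjusted p = 2.88e-11). It stood at 8.57, 6.98 and 9.26 FPKM in the fRIP of PABP, the poly(A) binding protein, with a log2 fold change of -1.34 (limma adjusted p = 2.04e-09). The CBX3 libraries, a heterochromatin protein, held 58.6, 82.1 and 54.4 FPKM (1.48), the libraries of the deacetylase HDAC1 63.9, 55.6 and 54.3 FPKM (1.34), and those of WDR5, a subunit of histone H3 methyltransferases, 12.03, 10.05 and 9.68 FPKM (-1.01). The input range of 14.9 to 32.8 FPKM separated the 3 high fRIPs from the 2 low ones. With centred libraries the calls of EZH1 in HNRNPH1 fRIP (0.79), EZH1 in PABP fRIP (-0.84) and EZH1 in WDR5 fRIP (-0.63) were lost. The last was also lost without any 1 of 5 libraries (WDR5 replicate 2 or 3, input set 1 replicate 2 or 3, or input set 3 replicate 3), at -0.98 to -0.94, and against the matched input set (-0.73).

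WDR5 fRIP was enriched for both subunits of the JARID2 and AEBP2 class. JARID2 stood at 43.6, 39.1 and 35.5 FPKM there (log2 fold change 1.17, limma adjusted p = 2.04e-16), and AEBP2 at 24.6, 22.8 and 29.2 FPKM (1.01, limma adjusted p = 7.49e-09), in both cases above all inputs. The call of AEBP2 in WDR5 fRIP was lost without input set 1 replicate 1 or 3 and without WDR5 replicate 3, at 0.91 to 0.99, and against the matched input set (0.97). WDR5 is one of the 4 fRIPs whose same-numbered libraries all correlated with those of their input set (0.17 to 0.50), and with a replicate block JARID2 in WDR5 fRIP (1.17), AEBP2 in WDR5 fRIP (1.01) and EZH1 in WDR5 fRIP (-1.01) were all still called. PABP fRIP was enriched for PHF19, at 304, 410 and 308 FPKM (1.21, limma adjusted p = 1.31e-06), and for RBBP7, at 204, 223 and 202 FPKM (1.02, limma adjusted p = 5.85e-09), all above the inputs. The call of RBBP7 in PABP fRIP was lost without PABP replicate 2 or any 1 library of input set 1, at 0.97 to 0.99. It also fell short of 2-fold against the matched input set.

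DNMT1, the maintenance DNA methyltransferase, separated SUZ12 from MTF2. SUZ12 mRNA was at 18.1, 19.6 and 22.3 FPKM in its libraries (-1.06, limma adjusted p = 6.21e-12), its lowest level of the panel, and MTF2 mRNA at 91.0, 84.5 and 123 FPKM (1.08, limma adjusted p = 5.74e-10). The call of SUZ12 in DNMT1 fRIP was lost without DNMT1 replicate 1 (-0.99) and that of MTF2 in DNMT1 fRIP without DNMT1 replicate 3 (0.92). SUZ12 in DNMT1 fRIP also fell just short of 2-fold against the matched input set. The last pairs were RBBP7 in CHD4 fRIP (1.02, with 192, 189 and 252 FPKM), EED in IMP1 fRIP (-1.16, with 18.2, 12.9 and 20.7 FPKM) and RBBP4 in ADAR fRIP (1.15, with 256, 267 and 250 FPKM). CHD4 and RBBP7 proteins belong to the same remodelling complex, and IMP1 is a cytoplasmic mRNA-binding protein. The call of RBBP7 in CHD4 fRIP was lost without CHD4 replicate 3 or any 1 library of input set 1, at 0.89 to 0.99, and that of EED in IMP1 fRIP without IMP1 replicate 2 (-0.97). Against the matched input set EED in IMP1 fRIP fell short of 2-fold too. The call of RBBP4 in ADAR fRIP was lost with centred libraries, at 0.17. Centring uses each library's own median, so its shift is not the median fold change of all genes there (0.29 as deposited).

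**Figure D4:**
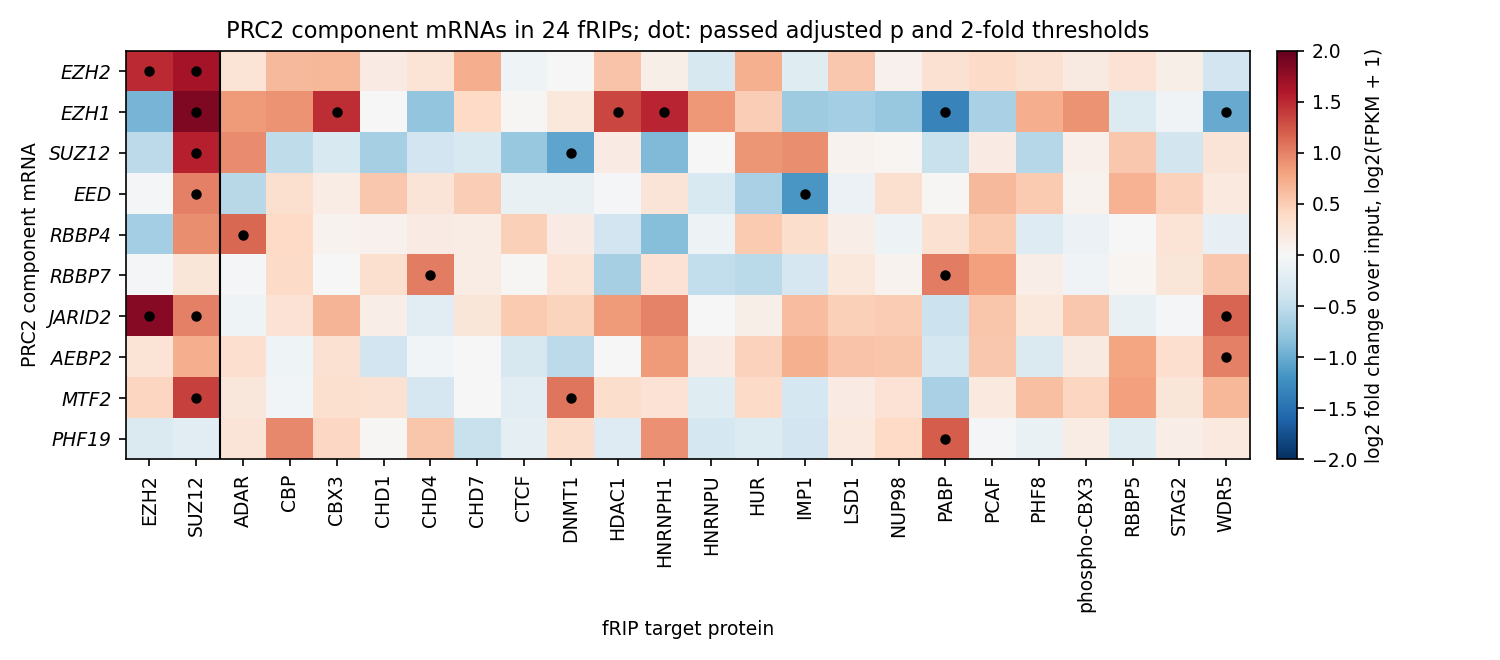
Log2 fold change over input, on the log2(FPKM + 1) scale, of the 10 PRC2 component mRNAs in the 24 fRIPs, from blue (lower than input) to red (higher), with EZH2 and SUZ12 fRIP left of the line. A black dot marks each of the 18 enriched and 4 depleted pairs, 6 of them in SUZ12 fRIP and 2 in EZH2 fRIP.

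Both EZH2 and SUZ12 fRIP were enriched for the mRNA of the protein that was pulled down, and this was common in the panel. The mRNA of the target itself was enriched in 12 of the 24 fRIPs and depleted in 0, where 6.9% of all gene and fRIP pairs were enriched. By fold change SUZ12 was at place 7 of 24 and EZH2 at place 8. EZH2 mRNA was no more enriched in its own fRIP than in SUZ12 fRIP, as given above, while SUZ12 mRNA was higher with SUZ12 than with EZH2 as the target.

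Other Polycomb genes gave the members a frame of reference. The list held 31 genes of Polycomb complexes and of enzymes that act on their marks, the pseudogene EZH2P1 among them, of which 30 passed the filter. In EZH2 fRIP 9 were enriched (EZH2P1 included) and 1 depleted, with a median log2 fold change of 0.57, and in SUZ12 fRIP 3 were enriched and 2 depleted, with a median of 0.08. The backgrounds are those given for the members, so the list lay above the enriched share of 10.5% in EZH2 fRIP. In SUZ12 fRIP the 3 lay within 2 genes of the share of 15.3%, and became 5 with a pseudocount of 0.1 or 0.5 and 7 against input set 2 alone.

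The leading genes in EZH2 fRIP were C17orf96, which encodes a PRC2 partner, at 20.5 and 27.9 FPKM against 1.22 to 4.88 FPKM in input (log2 fold change 2.99, limma adjusted p = 8.14e-15), and ASXL1, a cofactor of a histone H2A deubiquitinase, at 228 and 255 FPKM against 40.5 to 53.7 FPKM (2.30, limma adjusted p = 1.35e-23). The chromobox gene CBX2 (1.96), whose protein reads the mark that PRC2 writes, was also enriched. C17orf96 went the other way in SUZ12 fRIP, with 0.44, 0.336 and 0.372 FPKM (-1.18, limma adjusted p = 9.20e-06).

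PHC3, a Polyhomeotic subunit of Polycomb repressive complex 1, was depleted in EZH2 fRIP at 6.597 and 8.71 FPKM (-1.12, limma adjusted p = 5.91e-09) and enriched in SUZ12 fRIP at 66.9, 71.1 and 62.3 FPKM (1.85, limma adjusted p = 2.02e-19), against 14.99 to 22.9 FPKM in input. It thus lay where EZH1 lay, though its depletion in EZH2 fRIP was lost with centred libraries and with input set 2 alone. KDM6A, a demethylase of the PRC2 mark (1.67), and KDM2B, which brings a Polycomb complex to CpG islands (1.21), were the other genes enriched in SUZ12 fRIP, and CBX6 (-1.05) the other one depleted. The pseudogene EZH2P1, enriched in EZH2 fRIP at 1.91 and 3.46 FPKM, shares 4.25% of the 25-base words of the main EZH2 mRNA, so reads of the parent gene may count towards it.

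**Figure D5:**
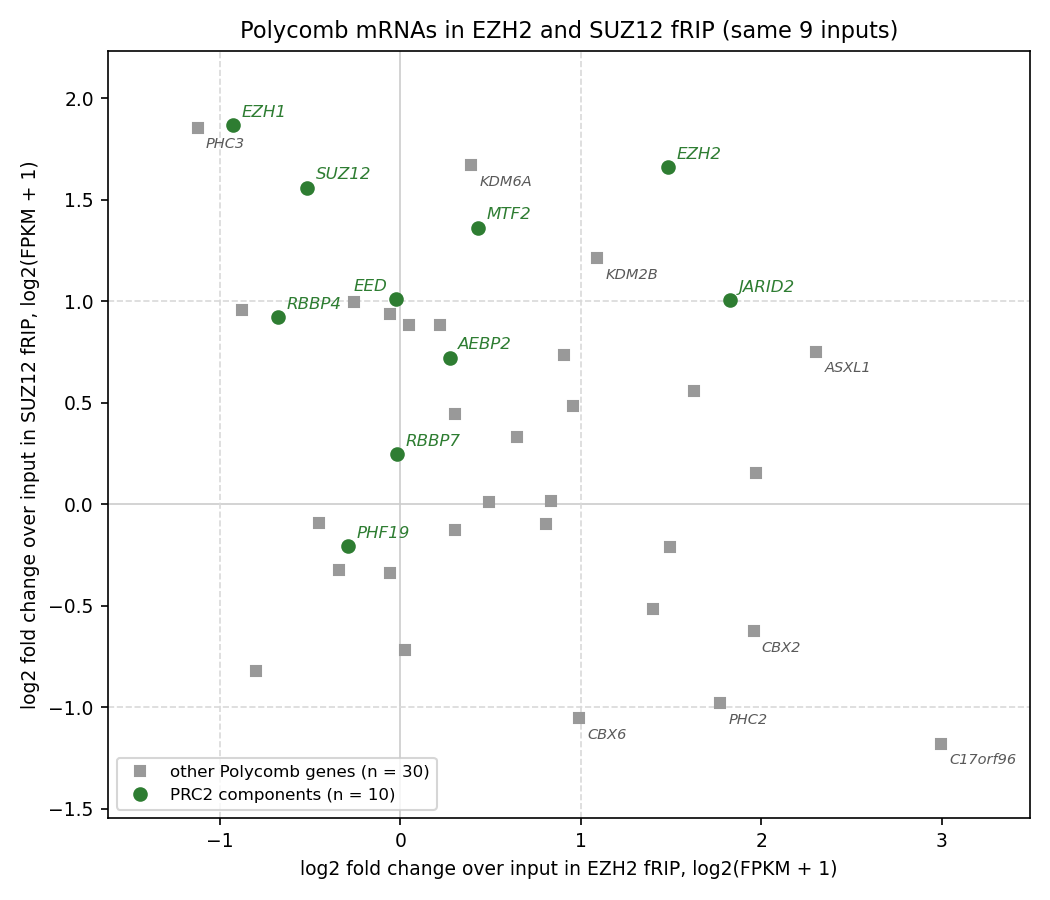
Log2 fold change over the same 9 inputs in EZH2 fRIP (horizontal) and SUZ12 fRIP (vertical), on the log2(FPKM + 1) scale, for the 10 PRC2 components (green) and 30 other Polycomb genes (grey squares), with dashed lines at 2-fold. EZH2 and JARID2 lie to the right at 1.49 and 1.83, EZH1 and SUZ12 at the upper left with PHC3, and C17orf96 at the lower right.

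The members' main mRNAs, the transcript with the highest mean FPKM in input, had a median length of 3333 bases and a median of 14 exons, against 2318 bases and 7 exons over 13579 mRNA genes. The word GAAGAA was searched because the study relates SUZ12 fRIP to exon number and AG-rich motifs, on the strand of the transcript, with overlapping matches counted. It was present in 8 of the 10 main mRNAs, and in 72.3% of all. EZH1 held 16 copies, EZH2 10, SUZ12 and JARID2 8 each, RBBP7 and MTF2 5 each, AEBP2 2, RBBP4 1, and EED and PHF19 0. These transcripts run from 836 bases (PHF19) to 6003 bases (JARID2). The 4149-base ENST00000373896 of PHF19, with 26.8% of its isoform FPKM in input, was not searched. In copies per kilobase EZH2 (3.86) and EZH1 (3.45) led, with a median of 1.28 over members and 0.67 over all. The word TTTTAAAA was in 5 of the 10 and in 29.0% of all.

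The densest 30 bases of EZH2, EZH1, SUZ12 and RBBP7 are printed to show what the matches look like, with GAAGAA in capitals. All of them lie in coding sequence.
EZH2, exon 10: tgataaaGAAGAAGAAgaGAAGAAagatga
EZH1, exon 4: tcctcaatGAAGAAtgGAAGAAgcttcgtg
SUZ12, exon 16: gcaaacGAAGAAataactGAAGAAcaaaat
RBBP7, exon 2: atGAAGAAtataaaatctgGAAGAAGAAta

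These lie at chr7:148514986-148515015 (minus strand), chr17:40879706-40879735 (minus strand), chr17:30325891-30325920 (plus strand) and chrX:16887281-16887310 (minus strand). The members enriched in SUZ12 fRIP held from 0 copies (EED) to 16 (EZH1), and RBBP7, with 5 copies, was not called in either fRIP. The EZH2 stretch lies in the same exon 10 whose end is the boundary printed for its retained-intron isoform, 2 bases upstream of that window. A match in these letters is a description of the transcript and not a binding site.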

How the data were processed

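fRIP-Seq and input libraries of K562 were prepared by the authors with Ribo-Zero depletion and the TruSeq RNA kit and sequenced as 31-base pairs. Reads were processed with CASAVA 1.4, aligned by the authors with TopHat to hg19 with GENCODE v18, and quantified with Cuffdiff (Cuffnorm is also named in the submitters' processing notes), which gave the deposited FPKM per gene and isoform. The strand setting of the counting, like the library scaling, is not given in the sources used here. Triplicates came from separate dates and lysates per the study (EZH2 and STAG2 in duplicate). The authors' comparison tables hold fold changes and p-values, which were not used. Their pooled group FPKM served only to find the input set nearest to that of each fRIP (set 3 for EZH2, set 1 for SUZ12).

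Values were tested as log2(FPKM + 1) with limma 3.58.1 in R 4.3.3 in 1 fit over 79 libraries, in which each protein had its own mean and the 9 inputs shared one, on genes with 1 FPKM in at least 2 libraries and likewise on 104506 isoforms and on sums of protein-coding and other isoforms per gene, a split chosen after seeing the data. A call needed both an adjusted p (Benjamini-Hochberg) under 0.05 and a change over 2-fold. Single genes were also compared by exact permutation in Python 3.11.15 with scipy 1.17.1. Scripts were tested on simulated data. The members and lists were chosen with earlier results of these data known. Named were the 10 members in both fRIPs, called pairs elsewhere, isoforms with 10% or more of their gene's FPKM in a group, and up to 4 other Polycomb genes per direction, of which 1 is not reported here, nor is 1 marker gene.

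Depth was estimated from the smallest steps in FPKM, where 93.7% to 96.0% of low values lay within 0.15 of a whole number of fragments. The fragment counts given for members rest on that estimate, while the FPKM values and calls do not use it. Isoform types, coordinates and sequences came from GENCODE v44 mapped to GRCh37, in which 115 of the members' 120 isoforms matched, and the other 5 entered neither sum. Same-numbered libraries correlated by -0.01 to 0.28 between SUZ12 fRIP and its input set and by -0.09 to 0.05 for EZH2, so the numbers were not taken to pair them. Every same-numbered pair correlated over 0.1 for 4 of 24 fRIPs (CHD1, NUP98, PCAF and WDR5). Alternatives were other pseudocounts (0.1 and 0.5), filters, input sets, centring, a replicate block and leaving out each library.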

Additional observations from a re-analysis of the deposited data

Results flagged for a closer look

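For 4 members the effect of the fRIP over the same inputs differed between SUZ12 and EZH2 as the target, by the test of that difference in limma. The log2 difference (SUZ12 fRIP minus EZH2 fRIP) was 2.79 for EZH1, 2.08 for SUZ12, 1.60 for RBBP4 and 1.03 for EED, with limma adjusted p of 1.62e-15, 2.68e-18, 5.56e-21 and 2.21e-05. All 3 SUZ12 libraries were above both EZH2 libraries for each of them. The 2 fRIPs were nearest to different input sets, which cannot be told apart from the target here. Those for RBBP4 may hold reads of its pseudogenes, which was not tested, and that for EED passed the 2-fold threshold by little. No member had a single input library far from the other 8.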

How the results depend on the processing

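No call of a member reversed under any alternative. In EZH2 fRIP, the 8 enriched isoforms became 13 with input set 1 alone. The 16 depleted isoforms became 9 with centred libraries, 7 with input set 3 alone, 8 with the matched input set, and 10 to 17 with 1 library left out (10 without EZH2 replicate 1). No mRNA was depleted there, and 1 (EZH1) with input set 1 alone. Of the sums of other isoforms, 1 to 3 were depleted with 1 library left out (1 without EZH2 replicate 1). The 1 depleted gene of the other Polycomb list became 0 with centred libraries and with input set 2 alone.

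In SUZ12 fRIP, the 6 enriched mRNAs became 2 with protein-coding isoforms only, an alternative chosen after seeing the data, and the 2 enriched protein-coding sums 4 with unmatched isoforms as coding. The 53 enriched isoforms became 32 and the 5 depleted ones 10 with centred libraries, and the latter 3 with input set 1 alone, which is also the matched input set. The protein-coding sums became 1 enriched and 1 depleted with centred libraries. Other Polycomb genes became 7 enriched with input set 2 alone and 5 with a pseudocount of 0.1 or 0.5 (from 3), and 1 depleted with input set 1 alone or the matched input set, and 1 to 3 with 1 library left out (from 2, with 1 without input set 2 replicate 3). In SUZ12 against EZH2 fRIP, 1 mRNA became lower with centred libraries, with the matched input set and with protein-coding isoforms only (from 0). Over 24 fRIPs, 2 pairs were depleted with the matched input set (from 4).

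Signs turned only for values that were not called. EED in EZH2 fRIP was at 0.14 with centred libraries, 0.26 with input set 1 alone and -0.22 to 0.17 with 1 library left out. RBBP7 in EZH2 fRIP was at 0.15, 0.30 and -0.11 to 0.081 under the same settings. PHF19 in SUZ12 fRIP was at 0.027 with input set 1 alone, the matched input set. EZH2 in SUZ12 fRIP against EZH2 fRIP was at -0.016 with centred libraries and -0.053 to 0.40 with 1 library left out, and PHF19 in SUZ12 fRIP against EZH2 fRIP at -0.11 and -0.069 to 0.21. The cause was not tested. With a replicate block, EED and RBBP7 in EZH2 fRIP were at 0.047 and 0.036, PHF19 in SUZ12 against EZH2 fRIP at -0.015, and the EED call between the fRIPs was lost (0.96). No other call of a member mRNA reported here changed with it. Of 702 alternatives to 24 counts and 1022 to 44 fold changes, 27 and 88 changed.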
